A study of Mus musculus with 8 samples.

Results

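Mitochondrial solute carriers of the SLC25 family were examined in the livers of adult male mice. Their transcripts were taken as the genes on the array whose symbol starts with Slc25a, together with Ucp1 and Ucp3, from array rows that the platform annotation ties to a single gene. The rule gave 48 genes of the 22180 genes tested. Each of the 48 had 1 such row, so that no choice between rows was needed, and a further row that names Slc25a35 beside another gene was left out. The arrays held liver RNA of 4 HFD PN and 4 Ctrl PN male offspring at 24 weeks, with 1 array per liver. HFD PN mice were nursed by C57BL/6J dams on a 60% high-fat diet (D12492) during lactation, and Ctrl PN mice by dams on standard chow. Both groups were weaned onto the normal diet, so that they shared the adult diet, and the livers were taken in the non-fasted state. No genetic change or other treatment was applied in either group. The sources do not say whether littermates were used within a group, and the p-values therefore measure the spread between these livers, which may in part be technical.

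Carriers of this family sit mostly in the inner mitochondrial membrane, which is closed to charged metabolites. Each exchanges or cotransports a few metabolites between the cytosol and the matrix, such as adenine nucleotides, phosphate, citrate, amino acids, carnitine esters or cofactors. In hepatocytes they connect mitochondria with the urea cycle, gluconeogenesis, lipid synthesis and fatty acid oxidation. The uncoupling proteins belong to the same family, and the best known of them lets protons leak back in brown fat to make heat.

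Expression was given as log2 values, in which a step of 1 is a doubling of the signal. Probe sets differ in how strongly they bind, so that levels are not compared between genes here and are set against a background limit. The limit was 1.66, the 95th percentile of the mean levels of 1394 olfactory and vomeronasal receptor genes, which liver is not known to use and whose median was 1.13. By its mean over the 8 arrays, a carrier lay above this limit for 38 of the 48 genes (79.2%), against 50.8% of all genes tested. In 31 carriers the value was above the limit in every liver, as it was in 39.7% of all genes. The array itself reads liver, since all 9 measured hepatocyte markers lay above the limit, with means of 6.70 to 12.24, and 0 of 4 erythroid markers did. By their means, 7 of 7 macrophage, 7 of 7 endothelial, 3 of 7 skeletal muscle and 2 of 8 adipocyte markers were also above it.

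Before the comparison, a pair of arrays has to be set apart. Across genes, Pearson's r of HFD PN replicate 1 with each of the 7 remaining arrays lay between 0.945 and 0.968, where 6 of the arrays reached at least 0.988 with their best partner. Ctrl PN replicate 3 had a highest r of 0.979. Both were kept, and differences that turned sign or moved far when one of them was left out are also given without it for the carriers described in full.

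**Figure D1:**
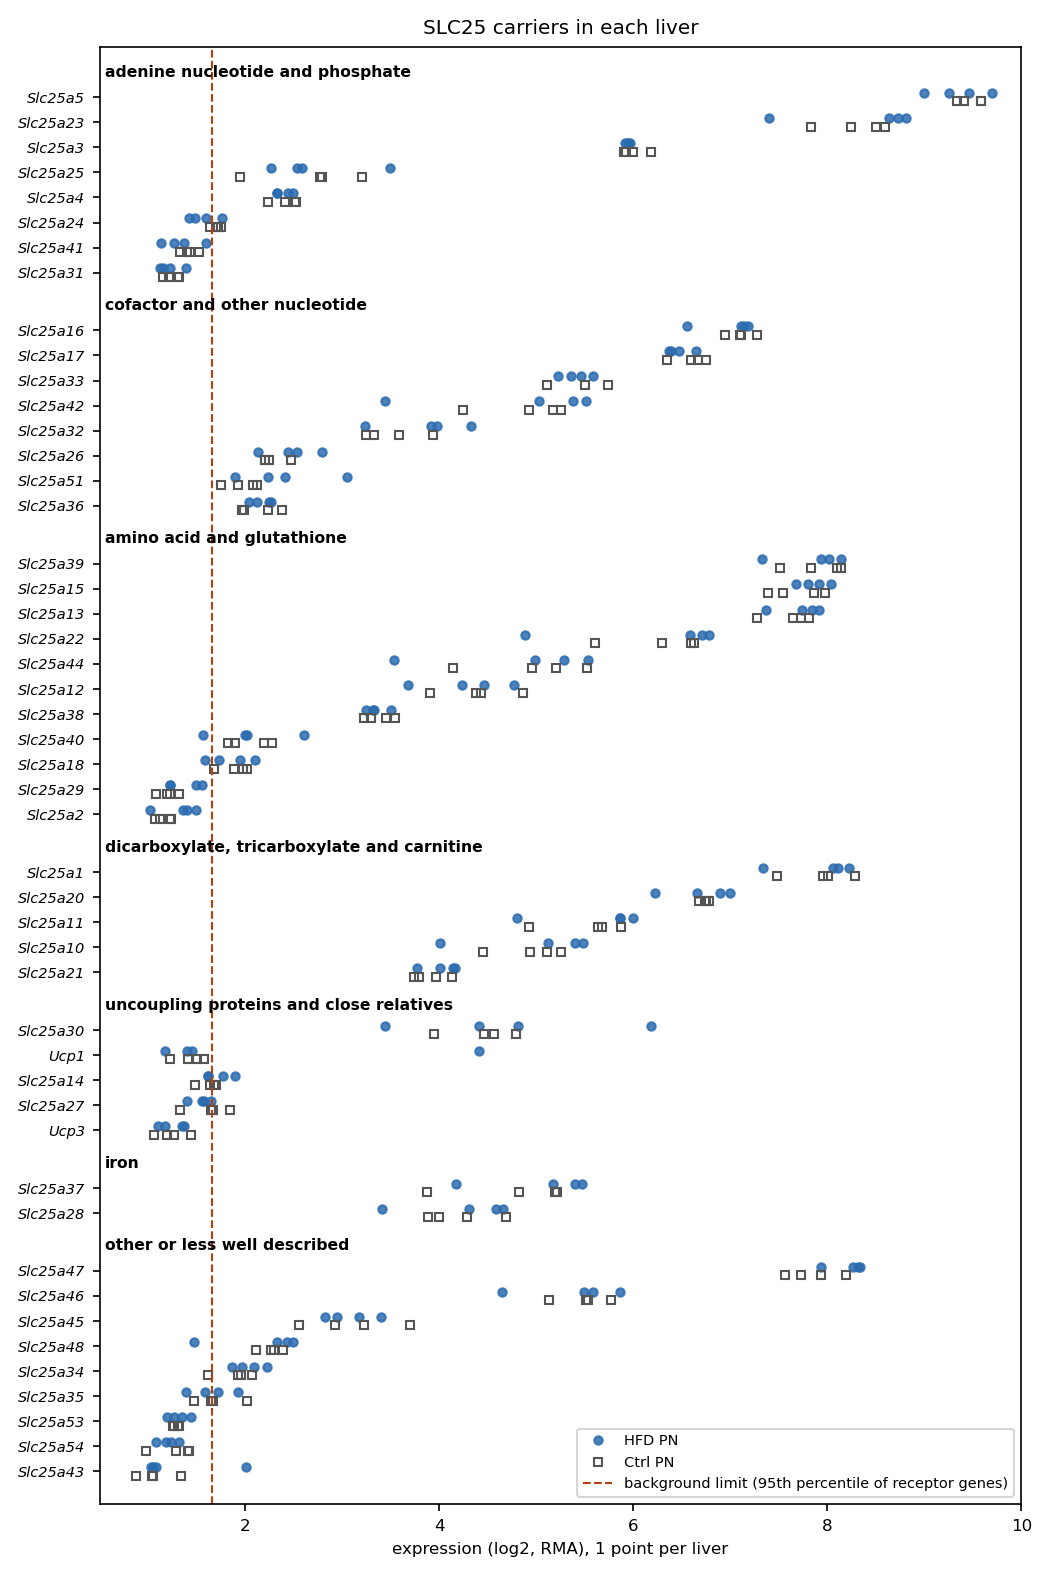
Log2 expression of the 48 carriers, grouped by role, with HFD PN livers as filled circles above and Ctrl PN livers as open squares below in each row. The dashed line is the background limit of 1.66, and the groups overlap for every carrier.

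Comparing HFD PN with Ctrl PN livers, no carrier passed the test after adjustment. Of the 48 carriers, 24 had a higher and 24 a lower mean in HFD PN, with differences between -0.14 and 0.68 on the log2 scale. The median difference of the family was 0.00, against -0.02 over all genes tested, of which 44.1% had a higher mean in HFD PN. The split of the family was 31 higher and 17 lower with the arrays centred on their medians, where 57.1% of all genes were higher. With weighted arrays it was 32 higher and 16 lower, where 47.6% of all genes were higher. Without Ctrl PN replicate 3 it was 18 higher and 30 lower, where 43.0% of all genes were higher. Without HFD PN replicate 1 it was 34 higher and 14 lower, where 47.5% of all genes were higher. Leaving out any other single liver gave a split between these. These shares over all genes are not like for like, since a smaller part of all genes than of the carriers had a mean above the background limit. At an unadjusted p under 0.01 from limma, 0 of 48 carriers were called, where 0.555% of all genes were. With the limit at an unadjusted p of 0.05, a single carrier of the 48 was called, Slc25a47, against 3.49% of all genes. At a limma adjusted p under 0.05 it was 0 of 48 and 0% of all genes. The methods' t-test after the same adjustment called 0 of 48 carriers and 1 of the 22180 genes. The limma adjusted p of every carrier was 0.99988. The HFD PN and Ctrl PN values did not separate for any of the 48 carriers, where 2.82% of all genes had groups without overlap. In 37 of the 48 the difference was smaller than its own standard error, which had a median of 0.16. In whole liver, fewer cells of a type and less RNA per cell cannot be told apart, and a missed threshold does not show that the levels were the same.

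The carrier that stood out by its test was Slc25a47, which is made almost entirely in liver. Its values were 7.94, 8.32, 8.27 and 8.34 in HFD PN replicates 1 to 4, against 7.73, 7.56, 7.94 and 8.19 in Ctrl PN replicates 1 to 4. The HFD PN livers other than replicate 1 lay above every Ctrl PN liver, and replicate 1 lay level with Ctrl PN replicate 3 and below Ctrl PN replicate 4. The means were 8.22 ± 0.19 in HFD PN and 7.86 ± 0.27 in Ctrl PN (SD, n = 4 each). The log2 difference was 0.36 (standard error 0.16, 95% interval 0.01 to 0.71), which is 1.28-fold. The limma unadjusted p was 0.0464 and the adjusted p 0.99988, and an exact two-sided permutation test over the livers gave p = 0.0857, where 0.0286 is the smallest p that 4 against 4 allow. With HFD PN replicate 1 left out the difference was 0.45 (unadjusted p = 0.0135, adjusted p = 0.447, limma). Leaving out any 1 of HFD PN replicates 2, 3 and 4 or of Ctrl PN replicates 1, 2 and 3 ended the call, with differences of 0.26 to 0.39 and limma unadjusted p between 0.058 and 0.126. With all livers the unadjusted p rose above 0.05 when the variance was trended and robust, when dim genes were left out, and in both forms of the methods' t-test.

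**Figure D2:**
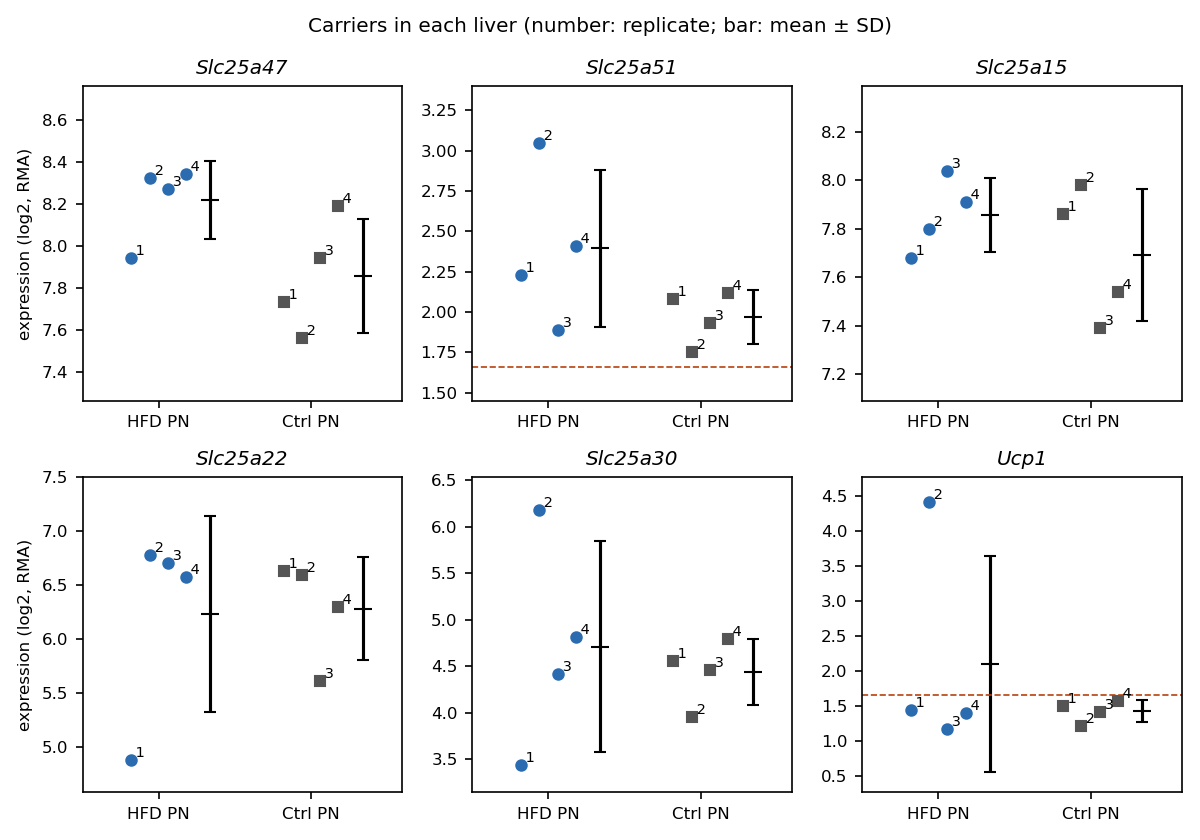
Log2 expression in each liver for 6 carriers, with HFD PN circles left and Ctrl PN squares right. Numbers are replicates, bars are the mean ± SD of the 4 livers, each panel has its own axis that does not start at 0, and the dashed line is the background limit of 1.66 where it falls in range. Slc25a47 is higher in HFD PN replicates 2, 3 and 4 than in all Ctrl PN livers, and Ucp1 and Slc25a30 have a single high liver, HFD PN replicate 2.

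Adenine nucleotide and phosphate carriers supply oxidative phosphorylation with ADP and phosphate and let ATP out. Of the 8 measured, 5 had a mean above background, 2 had positive and 6 negative differences, and the median difference was -0.04. Slc25a5, the ADP/ATP exchanger of most dividing and epithelial cells, had values of 9.25, 9.0, 9.70 and 9.46 in HFD PN livers, against 9.34, 9.41, 9.58 and 9.58 in Ctrl PN livers. HFD PN replicates 1 and 2 were the lowest of all livers and HFD PN replicate 3 the highest, so that the groups lay across each other (difference -0.12, standard error 0.15). Slc25a4, the exchanger known from heart and skeletal muscle, lay at 2.33 to 2.49 in HFD PN and 2.23 to 2.52 in Ctrl PN livers. Slc25a31, the form known from testis, stayed at 1.12 to 1.39 in HFD PN and 1.15 to 1.32 in Ctrl PN livers, below the limit in all of them. Slc25a3, which brings phosphate into the matrix, was the most even of these genes, at 5.97, 5.91, 5.95 and 5.95 in HFD PN livers and at 5.92, 5.90, 6.18 and 6.0 in Ctrl PN livers. Ctrl PN replicate 3 was the highest liver, and the difference was -0.05 (standard error 0.09), or 0.01 without that liver.

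The calcium-regulated carriers of ATP-Mg and phosphate, which adjust the nucleotide content of the matrix, were measured through Slc25a23, Slc25a24, Slc25a25 and Slc25a41. Slc25a23 had values of 7.40, 8.64, 8.73 and 8.81 in HFD PN livers, against 8.59, 8.50, 7.83 and 8.24 in Ctrl PN livers. HFD PN replicates 2, 3 and 4 lay above all Ctrl PN livers and HFD PN replicate 1 below all of them, which left a difference of 0.10 (standard error 0.32). Without HFD PN replicate 1 it was 0.435 (standard error 0.175, limma unadjusted p = 0.035, adjusted p = 0.511). Leaving out Ctrl PN replicate 3 instead gave -0.05. Slc25a25 lay at 2.53, 3.49, 2.27 and 2.59 in HFD PN and at 3.20, 2.79, 1.95 and 2.77 in Ctrl PN livers. HFD PN replicate 2 was its highest liver and Ctrl PN replicate 3 its lowest, with a difference of 0.04 (standard error 0.32) that was -0.20 with the lowest and -0.215 with the highest of these left out. Over all 8 livers the means of Slc25a24 and Slc25a41 lay below the limit. They were 1.57 in HFD PN and 1.70 in Ctrl PN livers for Slc25a24, and 1.34 in HFD PN and 1.42 in Ctrl PN livers for Slc25a41.

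Carriers of cofactors and other nucleotides were all above the limit by their means, with 8 of 8, and 4 had positive and 4 negative differences. Slc25a51, which brings NAD into the matrix, had the highest difference of the carriers that were above background in every liver. Its values were 2.23, 3.05, 1.89 and 2.41 in HFD PN, against 2.08, 1.75, 1.93 and 2.12 in Ctrl PN livers. HFD PN replicates 1, 2 and 4 lay above all Ctrl PN livers and HFD PN replicate 3 within them. The difference was 0.425 (standard error 0.225, 95% interval -0.09 to 0.94), and the exact permutation test gave a two-sided p of 0.143. Leaving out HFD PN replicate 2 brought it to 0.207. Slc25a42, which exchanges coenzyme A, lay at 3.44, 5.51, 5.03 and 5.38 in HFD PN and at 5.25, 5.17, 4.25 and 4.93 in Ctrl PN livers. The lowest livers were HFD PN replicate 1 and Ctrl PN replicate 3, and the difference was -0.06 (standard error 0.44) with all livers and 0.41 (standard error 0.24) without HFD PN replicate 1. Without Ctrl PN replicate 3 alone it was -0.28. Slc25a16, linked to coenzyme A in mitochondria, lay at 6.55, 7.14, 7.11 and 7.18 in HFD PN and at 7.28, 7.11, 6.95 and 7.10 in Ctrl PN livers. Apart from HFD PN replicate 1 its livers were close together (difference -0.11, standard error 0.16, or 0.04 without that array). Slc25a17, which works in the peroxisomal membrane, had means of 6.47 in HFD PN and 6.59 in Ctrl PN livers. Slc25a32, a folate carrier, had means of 3.87 ± 0.46 in HFD PN and 3.53 ± 0.31 in Ctrl PN livers (SD, n = 4 each), which differed by 0.34 (standard error 0.24). Slc25a26, the carrier of S-adenosylmethionine, had a difference of 0.19 (standard error 0.15), and the pyrimidine nucleotide carriers Slc25a33 and Slc25a36 had differences of -0.05 and 0.02.

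Amino acid carriers link the matrix with urea synthesis and with the malate-aspartate shuttle. Of 11 amino acid and glutathione carriers 9 had a mean above the limit, and 5 had positive and 6 negative differences. Slc25a13, the aspartate/glutamate exchanger citrin, had values of 7.37, 7.74, 7.91 and 7.84 in HFD PN, against 7.73, 7.65, 7.28 and 7.81 in Ctrl PN livers. HFD PN replicate 1 and Ctrl PN replicate 3 were the lowest, and the difference was 0.10 (standard error 0.16), or 0.22 and -0.01 with the first or the other of them left out. Slc25a15, which exchanges ornithine and citrulline for the urea cycle, lay at 7.68, 7.80, 8.04 and 7.91 in HFD PN and at 7.86, 7.98, 7.39 and 7.54 in Ctrl PN livers. The lowest livers were Ctrl PN replicates 3 and 4 (difference 0.16, standard error 0.15, or 0.06 without Ctrl PN replicate 3). The related ornithine carrier Slc25a2 stayed below the limit, at 1.02 to 1.49 in HFD PN and 1.07 to 1.24 in Ctrl PN livers.

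Slc25a22, a glutamate carrier, showed how far 1 array could decide a value. It lay at 4.88 in HFD PN replicate 1 and at 6.78, 6.71 and 6.58 in HFD PN replicates 2 to 4, against 6.63, 6.60, 5.61 and 6.30 in Ctrl PN replicates 1 to 4. The difference was -0.05 (standard error 0.43) with all livers and 0.40 (standard error 0.23) without HFD PN replicate 1. Leaving out Ctrl PN replicate 3 alone gave -0.275. The branched-chain amino acid carrier Slc25a44 had the same low livers, at 3.53 in HFD PN replicate 1 and 4.14 in Ctrl PN replicate 3, and its difference was -0.12 (standard error 0.45) with all livers and 0.31 without HFD PN replicate 1. Slc25a39, a glutathione carrier, lay at 7.33, 8.14, 8.02 and 7.94 in HFD PN and at 8.10, 8.14, 7.51 and 7.83 in Ctrl PN livers, again with those arrays lowest (difference -0.04, standard error 0.21). Leaving out HFD PN replicate 1 gave 0.14 for it, and leaving out Ctrl PN replicate 3 gave -0.17. Slc25a38, which supplies glycine for haem synthesis, was even across livers, at 3.24 to 3.5 in HFD PN and 3.22 to 3.54 in Ctrl PN. Slc25a12, the aspartate/glutamate exchanger best known from brain and muscle, had means of 4.29 in HFD PN and 4.39 in Ctrl PN livers. The glutamate carrier Slc25a18 and the glutathione carrier Slc25a40 had means above the limit, at 1.84 and 2.05 in HFD PN and 1.89 and 2.04 in Ctrl PN livers, but single livers below it. The carrier of basic amino acids Slc25a29 was below the limit in every liver, at 1.22 to 1.55 in HFD PN and 1.08 to 1.32 in Ctrl PN.

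Di- and tricarboxylate carriers and the carnitine carrier were above the limit in 5 of 5 cases, with 3 positive and 2 negative differences and a median of 0.06. Slc25a1, which exports citrate for fatty acid and sterol synthesis, had values of 7.34, 8.06, 8.22 and 8.11 in HFD PN, against 7.96, 8.29, 7.48 and 8.01 in Ctrl PN livers. Both groups averaged 7.93, with an SD of 0.40 in HFD PN and 0.34 in Ctrl PN livers, and the difference was 0.20 when HFD PN replicate 1 was left out and -0.15 when Ctrl PN replicate 3 was. Slc25a20, which exchanges acylcarnitines for carnitine and so feeds fatty acids to oxidation, lay at 6.22, 6.66, 7.0 and 6.89 in HFD PN and at 6.75, 6.68, 6.74 and 6.78 in Ctrl PN livers. The Ctrl PN livers lay within 0.10 of each other, while the HFD PN livers reached both above and below them (difference -0.04, 95% interval -0.41 to 0.33). The difference was 0.12 without HFD PN replicate 1. Slc25a20 is a known target of the nuclear receptor PPAR-alpha. Slc25a10, the dicarboxylate carrier, lay at 4.01, 5.12, 5.48 and 5.40 in HFD PN and at 5.26, 4.94, 4.45 and 5.11 in Ctrl PN livers. HFD PN replicate 1 was its lowest liver and Ctrl PN replicate 3 the next, and the difference was 0.06 (standard error 0.33). It was 0.40 without the first of these arrays and -0.10 without the other. The oxoglutarate carrier Slc25a11 had a difference of 0.10 (standard error 0.30), or 0.38 without HFD PN replicate 1, and the oxodicarboxylate carrier Slc25a21 one of 0.11 (standard error 0.13).

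Among the uncoupling proteins and their close relatives the highest difference of the whole family was that of Ucp1, the heat-producing protein of brown fat, and it came from 1 liver. Ucp1 stood at 4.41 in HFD PN replicate 2 and at 1.45, 1.17 and 1.40 in HFD PN replicates 1, 3 and 4, against 1.5, 1.22, 1.41 and 1.58 in Ctrl PN replicates 1 to 4. Every liver but 1 was therefore below the background limit. Its difference was 0.68 (standard error 0.64), with a two-sided p of 0.83 in the exact permutation test, and it was -0.09 without HFD PN replicate 2. Ucp3, known from skeletal muscle, lay at 1.37, 1.17, 1.35 and 1.10 in HFD PN and at 1.06, 1.44, 1.19 and 1.27 in Ctrl PN livers, all below the limit. Of 7 skeletal muscle markers, 3 had means above the limit, the highest at 2.05, and 1 had a positive and 6 a negative difference. The 2 at an unadjusted limma p under 0.05, where 3.49% of all genes were called, were Acta1 and Myl1. Their differences were -0.24 (standard error 0.10) and -0.42 (standard error 0.16). Slc25a14 and Slc25a27, which are best known from brain, were near the limit, with means of 1.73 and 1.54 in HFD PN and 1.63 and 1.62 in Ctrl PN livers.

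The same liver was high for Slc25a30, a carrier described in kidney mitochondria. Its values were 3.44, 6.18, 4.41 and 4.81 in HFD PN, against 4.56, 3.95, 4.46 and 4.79 in Ctrl PN livers. Its difference was 0.27 (standard error 0.50), with a two-sided p of 0.743 in the exact permutation test. It moved to 0.69 when HFD PN replicate 1 was left out, and to -0.22 when replicate 2 of that group was. Over all genes, ranked by how far HFD PN replicate 2 rose above the next highest liver, Ucp1 was 2nd with a gap of 2.82, Slc25a30 was 11th with 1.37 and Slc25a51 was 68th with 0.64. This ranking was made after their values were seen. The 1st was Cox8b, a respiratory chain subunit of brown fat and muscle, at 4.30 in HFD PN replicate 2 and at most 1.40 in the other livers. Ranks 3 to 8 were Serpina4-ps1 (2.66), C4a (2.35), Retn (1.96), Fabp4 (1.76), Gbp11 (1.53) and Cidec (1.51), of which Retn, Fabp4 and Cidec are known from fat cells. Of the 8 adipocyte markers listed for the check, Plin1 and Cox7a1 had means above the background limit, and the mean of the 8 was 1.48 to 2.11 in HFD PN livers, the highest being that of replicate 2, and 1.41 to 1.6 in Ctrl PN livers. Without Cox8b the mean of the other 7 was 1.80 in HFD PN replicate 2 and 1.74 in HFD PN replicate 1, with 1.43 to 1.65 in Ctrl PN livers. Dio2, a brown fat enzyme that activates thyroid hormone, was at 1.07 in HFD PN replicate 2, the lowest of all livers, and Lep, the gene of leptin, was at 0.97 there. Cidea and Cox7a1 were also highest in HFD PN replicate 2, at 2.15 and 3.6, with gaps of 0.34 and 0.37, while Adipoq, the defining product of fat cells, was at 1.24 there and 1.15 to 1.5 in the other livers. Plin1, a coat protein of fat droplets, was at 2.05 there and at 2.08 in Ctrl PN replicate 3. The part of fat cells in the Ucp1 value was not tested.

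The mitoferrins carry iron into the matrix for haem and iron-sulphur clusters. Slc25a37, the form best known from red cell precursors, lay at 4.17, 5.47, 5.17 and 5.40 in HFD PN and at 5.19, 4.82, 3.87 and 5.21 in Ctrl PN livers. HFD PN replicates 2 and 4 were the highest and Ctrl PN replicate 3 the lowest, with a difference of 0.28 (standard error 0.37) that was 0.575 when HFD PN replicate 1 was left out and -0.02 when Ctrl PN replicate 3 was. Slc25a28, the form of other tissues, lay at 3.41, 4.31, 4.66 and 4.59 in HFD PN and at 4.00, 4.69, 3.88 and 4.29 in Ctrl PN livers. Its lowest liver was again HFD PN replicate 1, and its difference was 0.03 (standard error 0.29), or 0.31 without that liver and -0.08 without Ctrl PN replicate 3. The 4 measured erythroid markers had means of 1.21 to 1.56, under the limit, with 1 positive and 3 negative differences. Slc4a1 among them lay at 1.14 to 1.42 in HFD PN and at 1.47 to 2.18 in Ctrl PN livers, without overlap. Its difference was -0.46 (standard error 0.17, limma unadjusted p = 0.0267, adjusted p = 0.99988). Over all genes, 3.49% were called at an unadjusted p under 0.05 and 2.82% had groups without overlap. Markers of macrophages, which also handle iron, had 1 positive and 6 negative differences of 7, and those of endothelial cells 0 positive and 7 negative, none at an unadjusted p under 0.05. Their part in the carrier values was not tested.

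Of the 9 carriers whose roles are less well described, 6 had a mean above the limit, Slc25a47 among them. Slc25a46, an outer membrane protein of mitochondrial shape, had means of 5.39 ± 0.52 in HFD PN and 5.48 ± 0.26 in Ctrl PN livers (SD, n = 4 each). Slc25a45 and Slc25a48 had differences of -0.02 and -0.09, and Slc25a34 and Slc25a35 of 0.14 and -0.05. Slc25a53 and Slc25a54 stayed below the limit in all livers. Slc25a43 was below it in all livers but HFD PN replicate 1, where it was at 2.01, against 1.03 to 1.08 in the other HFD PN livers and 0.87 to 1.34 in Ctrl PN livers.

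**Figure D3:**
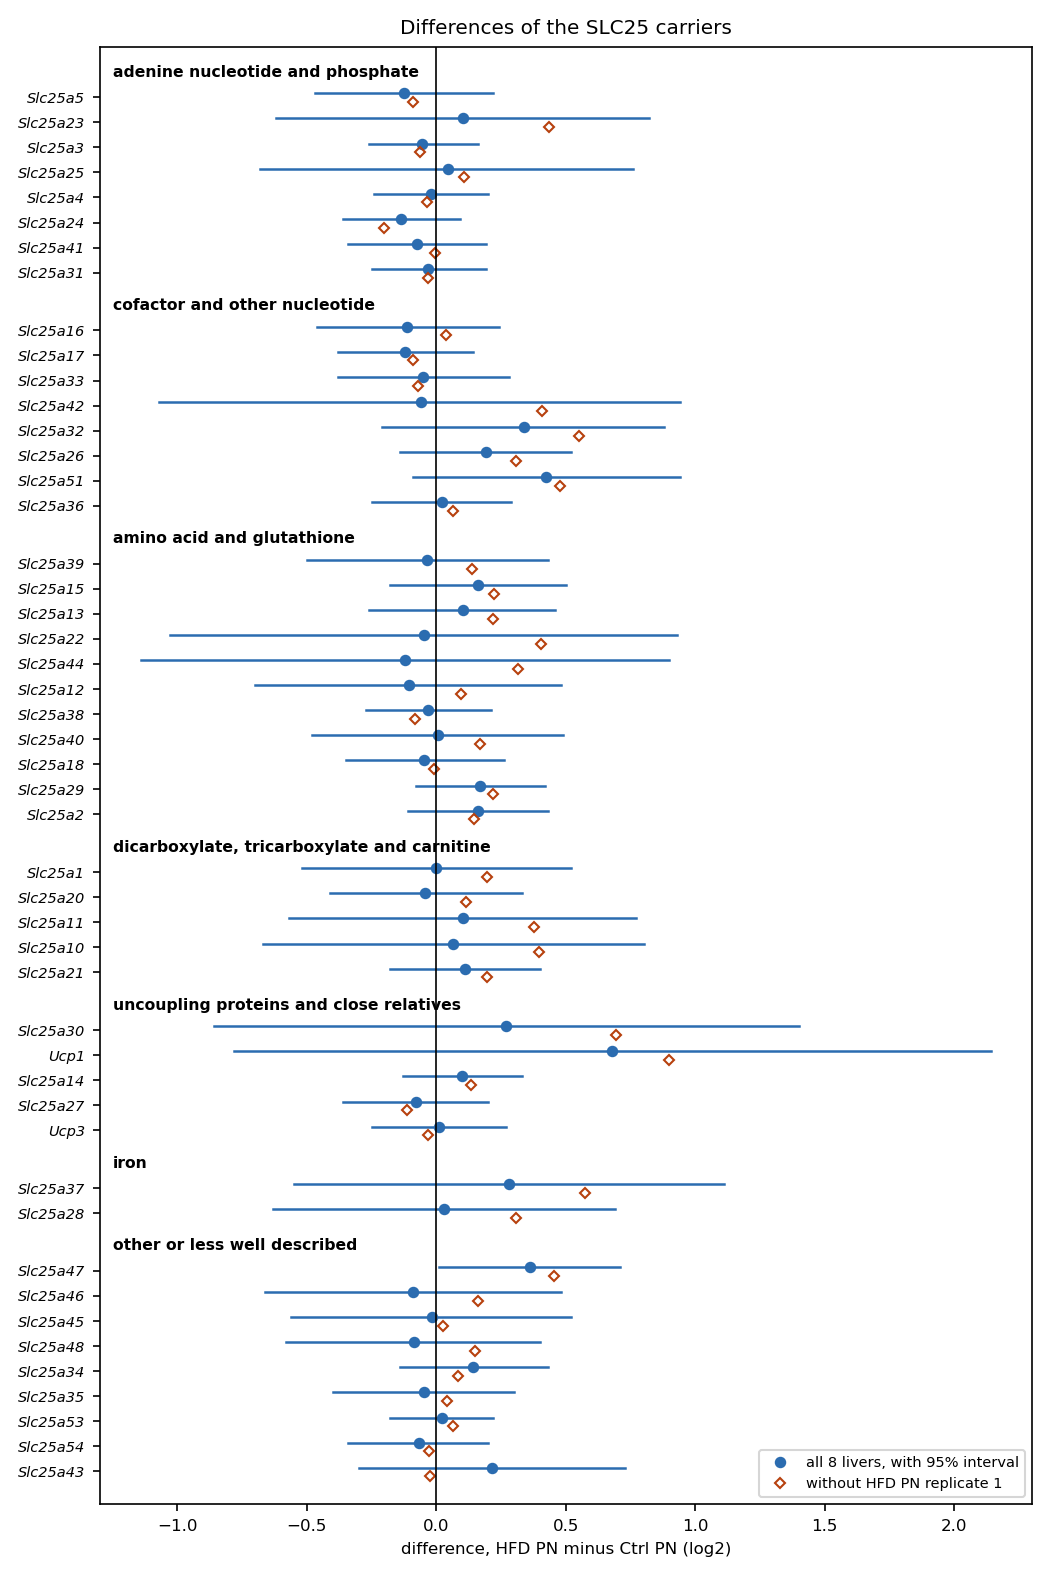
Log2 difference, HFD PN minus Ctrl PN, of the 48 carriers by role. Circles with lines are the limma estimate and its 95% interval over all 8 livers, and diamonds are the estimate without HFD PN replicate 1. The interval of Slc25a47 alone leaves out 0, by a margin of 0.01, and most diamonds lie to the right of their circles.

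Many carriers were low in the same livers. Among the 38 carriers with a mean above the limit, 33 (86.8%) were lower in HFD PN replicate 1 than the mean of the other HFD PN livers, by a median of -0.53, and the range ran from -1.87 for Slc25a42 to 0.24 for Slc25a34. In 19 of the 38 this array gave the lowest of all 8 values. Over all 11266 genes with a mean above the limit, HFD PN replicate 1 was below the other HFD PN livers in 75.9%, by a median of -0.38, and was the lowest of 8 in 47.9%. Whether the carriers differed from the other genes in this was not tested. Ctrl PN replicate 3 was lower than the other Ctrl PN livers in 26 of the 38 carriers, by a median of -0.21. Over all genes with a mean above the limit it was lower in 66.0%, by a median of -0.16. The 5 carriers that did not fall on HFD PN replicate 1 were Slc25a3, Slc25a4, Slc25a33, Slc25a34 and Slc25a38.

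**Figure D4:**
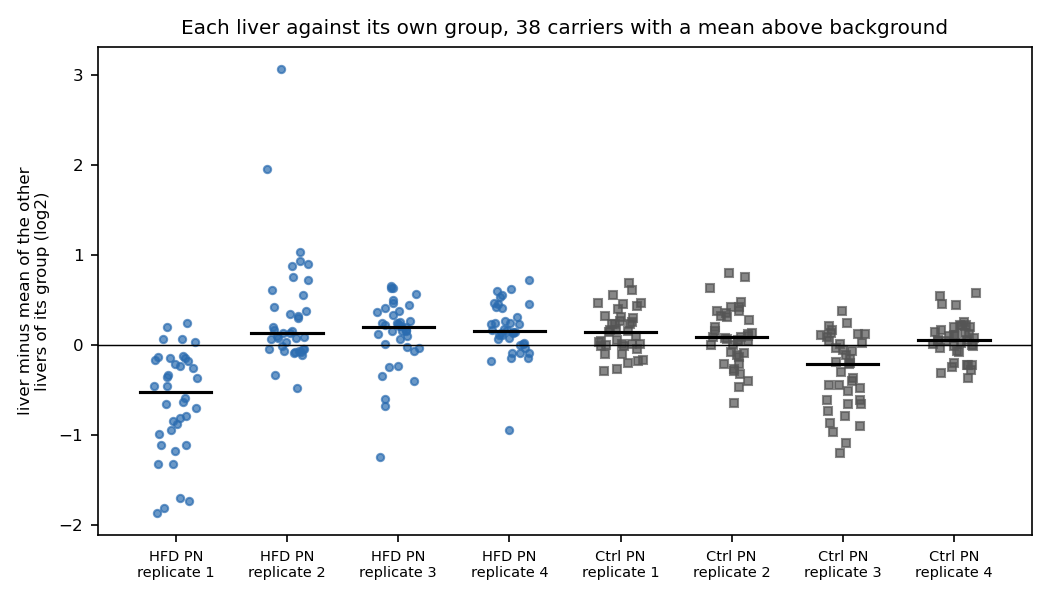
Each liver's log2 level minus the mean of the other 3 livers of its group, for the 38 carriers with a mean above background (points) with their median (bar). HFD PN replicate 1 has a median of -0.53 and Ctrl PN replicate 3 of -0.21, and the single point at 3.07 in HFD PN replicate 2 is Ucp1.

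Spread within the groups set what could be seen. The pooled SD of a carrier with a mean above the limit ran from 0.09 for Slc25a3 to 1.09 for Ucp1. Ucp1 passed the limit by its mean only through HFD PN replicate 2. Among the 31 carriers above the limit in every liver, the pooled SD ran from 0.09 to 0.84. Among the 38 above it by their means, it was under 0.2 for 9 carriers, such as Slc25a3, Slc25a4, Slc25a17 and Slc25a38. It was over 0.5 for 9 of the 38, among them Slc25a22, Slc25a42, Slc25a44 and Slc25a10. Leaving out HFD PN replicate 1 gave 34 of 48 positive differences, where 47.5% of all genes were positive, and a median of 0.14, against -0.01 over all genes. At an unadjusted p under 0.05 from limma, 4 of 48 carriers were then called, Slc25a23, Slc25a26, Slc25a32 and Slc25a47, all higher in HFD PN, where 9.39% of all genes were called. With Ctrl PN replicate 3 left out as well, the median was 0.08. These figures over all genes are not like for like, since 79.2% of the carriers but 50.8% of all genes had a mean above the limit. HFD PN replicate 1 was below the other HFD PN livers in 75.9% of the genes with a mean above the limit and in 55.5% of all genes.

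Genes around the carriers were examined in lists. Carrier proteins are made in the cytosol and enter the inner membrane through the TOM pore, small chaperones of the intermembrane space and the TIM22 complex. Of 13 such import genes, all with a mean above the limit, 9 had a positive and 4 a negative difference, with a median of 0.09. Timm9, one of the small chaperones, was the 1 member of the 13 at an unadjusted p under 0.05, where 3.49% of all genes were called. Its values were 5.00, 5.08, 4.14 and 4.76 in HFD PN, against 3.87, 4.09, 4.27 and 4.48 in Ctrl PN livers. Their means differed by 0.57 (standard error 0.22, limma unadjusted p = 0.0296, adjusted p = 0.99988). HFD PN replicates 1, 2 and 4 lay above all Ctrl PN livers and replicate 3 within them, and the exact permutation test gave a two-sided p of 0.0857. Timm22, the channel of the complex, had a difference of -0.15 (standard error 0.14). Of 17 measured porins and other transporters, which include the outer membrane channels and the pyruvate and calcium transporters, 8 had positive and 9 negative differences, with 0 of 17 at an unadjusted p under 0.05. Those with the smallest p were Vdac2, a porin, at -0.135 (standard error 0.097), and Mtch1, a relative of the carriers in the outer membrane, at -0.41 (standard error 0.33). The Mtch1 difference came largely from HFD PN replicate 1, at 3.76. HFD PN replicates 2, 3 and 4 were at 5.03, 5.46 and 5.23, against 5.17 to 5.44 in Ctrl PN livers.

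Sequences upstream of the genes were looked at for features that the carriers share. RefSeq promoter windows (GRCm38.p6, 250 bases before to 50 after a gene's start) were matched by gene identifier for 38 of the 48 carriers, 7 of which had several windows that were averaged. The median window of a carrier held 60.2% G and C and 17 CG dinucleotides, against 52.8% and 7 over 27025 genes. The word TATAAA, on either strand, was in a window of 2 of 38 carriers (5.26%) and 15.7% of all genes, and CCGGAAG, the core that ETS factors bind, in 7 of 38 (18.4%) and 9.93%. GCATGCGC, the core of NRF1 sites, was in 2 of 38 (5.26%) and 3.05%, the carriers being Slc25a31 and Slc25a54, so that 0 of the 31 carriers with a window and a mean above the limit held it. These are matches of letters and show no binding. For the carriers with a mean above and below the limit the median was 17 and 17.5 CG dinucleotides. Shown, with CG in capitals, are the window of Slc25a47, the carrier at an unadjusted p under 0.05, that of Slc25a39, as a carrier window dense in CG, and that of Ucp1, the carrier with a single high liver.
Slc25a47 (chr12:108850879-108851178, plus strand): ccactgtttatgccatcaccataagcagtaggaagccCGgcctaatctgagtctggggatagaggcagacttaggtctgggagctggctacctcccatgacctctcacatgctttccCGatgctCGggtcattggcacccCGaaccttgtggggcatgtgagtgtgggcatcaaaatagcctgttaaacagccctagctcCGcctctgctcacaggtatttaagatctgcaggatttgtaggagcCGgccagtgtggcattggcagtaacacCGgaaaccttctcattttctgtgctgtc
Slc25a39 (chr11:102407468-102407767, minus strand): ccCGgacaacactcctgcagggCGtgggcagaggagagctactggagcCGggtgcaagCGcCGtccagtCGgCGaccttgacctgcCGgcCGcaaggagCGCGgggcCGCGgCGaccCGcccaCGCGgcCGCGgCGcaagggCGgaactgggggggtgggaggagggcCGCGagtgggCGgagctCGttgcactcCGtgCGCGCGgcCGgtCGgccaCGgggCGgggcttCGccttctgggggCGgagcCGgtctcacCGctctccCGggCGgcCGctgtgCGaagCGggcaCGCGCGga
Ucp1 (chr8:83290098-83290397, plus strand): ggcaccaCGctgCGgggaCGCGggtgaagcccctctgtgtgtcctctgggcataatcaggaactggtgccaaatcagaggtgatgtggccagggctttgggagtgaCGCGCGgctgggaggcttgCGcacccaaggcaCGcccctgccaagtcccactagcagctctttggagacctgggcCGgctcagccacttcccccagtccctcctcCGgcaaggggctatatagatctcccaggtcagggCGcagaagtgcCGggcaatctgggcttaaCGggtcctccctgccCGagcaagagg
The window of Slc25a47 held 7 CG dinucleotides and that of Slc25a39 held 45. The window of Ucp1 held 15, close to the median of the carriers.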

How the data were processed

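Liver RNA of 8 male offspring was measured on 1 Affymetrix Mouse Gene array each. The authors deposited log2 values made with RMA (oligo, R 3.4.3, per the labels and the paper's methods), which corrects background, equalises probe distributions and summarises each transcript cluster. Probe files were not used, and no source used here names the build behind the probe sets. Clusters naming 1 gene (23521 of 41345) were updated by gene identifier, keeping the row with the highest mean. The 22180 genes were fitted with limma 3.58.1 in R 4.3.3 (2 groups, no covariate), with Benjamini-Hochberg adjustment over all genes and the study's exploratory threshold of 0.01 beside 0.05. Single carriers were compared by exact permutation. Alternatives changed the scaling, the filter, the variance model, the array weights, the rows, the test and the livers used. The procedure was tested on simulated arrays. The carriers given in full were 18 listed by name for their roles, Ucp1, Ucp3 and Slc25a30 among them, those at an unadjusted p under 0.05 and the 8 with the highest mean, a rank of probe set signals used only to choose them. Carriers, lists, rules and alternatives were chosen with earlier results of these data known. The number of arrays limits the precision.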

Additional observations from a re-analysis of the deposited data

Results flagged for a closer look

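Among the 96 groups of 4 livers (48 carriers in HFD PN and in Ctrl PN), 7 held a liver far from the other 3 of its group, with a gap to the nearest of them, over the group's range, above Dixon's 95% critical value. About 1 in 20 groups is marked so by chance. Of the 7, 6 were HFD PN replicate 1. This array was low for Slc25a11 (4.80, with the other HFD PN livers at 5.86 to 6.0), Slc25a16 (6.55, others 7.11 to 7.18), Slc25a22 (4.88, others 6.58 to 6.78), Slc25a23 (7.40, others 8.64 to 8.81) and Slc25a48 (1.47, others 2.33 to 2.49), and high for Slc25a43 (2.01, others 1.03 to 1.08). The other was Ucp1 in HFD PN replicate 2 (4.41, others 1.17 to 1.45). No liver of Ctrl PN was marked. The check was run on the carriers only, so that no share over all genes can be set beside these counts. Over all genes with a mean above the background limit, HFD PN replicate 1 gave the lowest of the 8 values in 47.9%.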

How the results depend on the processing

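The count of carriers at an unadjusted p under 0.01 was 0 under all alternatives but array weights, which gave 1, Slc25a47 (difference 0.45, limma adjusted p = 0.5). Array weights also called more of the 22180 genes at this threshold, 241 higher and 185 lower in HFD PN. The main fit called 43 higher and 80 lower, and the fit without HFD PN replicate 1 called 393 higher and 99 lower. The median difference of the family ran from -0.025 to 0.137 with each liver left out in turn, the highest without HFD PN replicate 1. It was 0.05 with median centring, 0.01 with quantile normalization and 0.09 with array weights. The count above background in every liver was 31, 27 at the 99th percentile and 38 by the mean. Same-numbered livers deviated together in some cases only (correlations -0.303, 0.291, -0.407 and 0.161), and the numbers were not taken as pairs. With 4 livers per group, a pair of them set apart, this check cannot exclude a pairing. With the replicate number as a block the count was 0 and the median 0.00. For 20 carriers under these alternatives, 292 of 359 values kept their sign and side of an unadjusted p of 0.05, 53 changed sign, 10 lost it (all Slc25a47) and 4 gained it (Slc25a23 and Slc25a51).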
